A study of Homo sapiens with 4 samples.

Results

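The 45 genes described here carry family symbols of the ATP-binding cassette (ABC) transporters, subfamilies ABCA to ABCG. They are the rows of the gene table, out of 29670, whose symbol is ABC followed by a letter from A to G and a number. The circRNA table lists 12473 back-splices, and 39 of these lie in 10 of the 45 genes. RNA was sequenced from 4 established human lines labelled as liver cancer, namely SK-Hep-1, Huh-7D12, HepG2 and Hep3B. Each line gave 1 library, with no treatment named for it and no replicate. Ribosomal RNA was removed from total RNA, poly(A) selection was skipped, and a stranded kit and 100-bp paired reads were used, so that linear and circular RNA were both kept. No test, p-value or standard deviation could be given, and a difference between lines was judged by size alone.

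ABC proteins bind and hydrolyse ATP on paired nucleotide-binding domains. Most use it to move lipids, bile constituents, peptides, drugs or their conjugates across a membrane. In hepatocytes several of them stand in the canalicular membrane, where they pump bile salts, phosphatidylcholine, sterols and conjugated bilirubin into bile. Members of the ABCD group and part of the ABCB group serve peroxisomes, lysosomes and mitochondria. ABCE1 and the ABCF proteins have no membrane part and act on ribosomes.

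The promoter windows of ABCG5 and ABCG8, which stood apart in the same line, are shown first. These genes encode the subunits of the sterol pump of the canaliculus and are read in opposite directions from a shared stretch of chromosome 2. Their RefSeq start sites on GRCh38.p14 lie 131 bases apart, and the 300-base windows (250 bases before to 50 after each start) share 231 bases. The window of ABCG8, chr2:43838721-43839020 on the plus strand, reads as follows, with capitals marking its match to the GATA box GATAAG, found on the minus strand.
ABCG8 window: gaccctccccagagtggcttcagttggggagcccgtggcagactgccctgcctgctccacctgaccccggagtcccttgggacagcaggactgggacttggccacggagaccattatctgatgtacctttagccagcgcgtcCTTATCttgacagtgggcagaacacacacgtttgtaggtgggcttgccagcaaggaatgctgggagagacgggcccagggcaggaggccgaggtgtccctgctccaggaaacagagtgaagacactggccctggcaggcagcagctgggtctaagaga
The match lies in the shared bases, so the window of ABCG5 holds it too. Of all 35116 RefSeq windows, 6.36% hold GATAAG on either strand. Windows were found for 35 of the 45 genes, and besides ABCG5 and ABCG8 those of ABCA6, ABCB1, ABCB10 and ABCG2 hold it. Some genes have several windows, and counted by window 7 of 53 hold it. An HNF4A core, CAAAGTCCA on either strand, is in 0.384% of all windows and was in none of those 35 genes. A match is a run of letters and not a binding site.

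The circRNAs of ABCD3 carried most of the family's back-splice reads, and 4 of their junctions are shown for that reason. ABCD3 encodes a transporter of the peroxisome membrane. Each line gives the last 20 bases of the closing exon in capitals and the first 20 bases of the opening exon in lower case, from transcript ABCD3-202 of GENCODE 29 on the plus strand of GRCh38.
ABCD3 exons 2 to 10, chr1:94458607-94483239: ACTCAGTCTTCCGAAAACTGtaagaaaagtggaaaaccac
ABCD3 exons 2 to 16, chr1:94458607-94491247: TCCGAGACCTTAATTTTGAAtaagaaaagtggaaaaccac
ABCD3 exons 2 to 9, chr1:94458607-94480606: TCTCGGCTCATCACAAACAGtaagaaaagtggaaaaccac
ABCD3 exons 2 to 13, chr1:94458607-94487983: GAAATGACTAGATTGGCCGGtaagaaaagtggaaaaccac
All 4 open with exon 2 and so end in the same letters; they differ in the exon that closes the loop.

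The gene table held 18581156 to 24409250 reads per library. Of these the ABC genes took 14577 in SK-Hep-1, 23953 in Huh-7D12, 25202 in HepG2 and 28411 in Hep3B. These reads are not adjusted for depth. As summed levels the order differed, with 769 in SK-Hep-1, 1017 in Huh-7D12, 1378 in HepG2 and 992 in Hep3B. Mitochondrial genes took 17.4% to 47.4% of the reads of a library. Of the 7 hepatocyte markers, which include ALB, APOB and HNF4A, all entered and all stood lower in SK-Hep-1, where 4 were at 0 reads and the list summed to a level of 40.5. In the other 3 lines it summed to 20922 to 33127. All 5 mesenchymal markers stood higher in SK-Hep-1, with a summed level of 8756 against 14.2 to 786. Endothelial and leukocyte markers, among them PECAM1, VWF and PTPRC, had summed levels of at most 1.92 in every line. The 4 cholangiocyte markers summed to 430 in SK-Hep-1, where KRT7 stood higher and EPCAM lower, against 265 to 363 in the other 3 lines. The part of these marker differences in the results on SK-Hep-1 was not tested.

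A level is the deposited value times 0.0392, which sets the mean library total to 1000000. Genes with a level of 1 or more in any line entered the comparison, which were 37 of the 45 and 15850 of all. Below, "stood higher" means that log2(level + 1) of a line exceeded each of the other 3 lines by 2 or more, which is 4-fold, and "stood lower" means the reverse. Beside levels and folds, 95% intervals cover counting error only. With bulk RNA, fewer cells that express a gene and less RNA per cell cannot be told apart.

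By this rule 8 of the 37 genes stood apart in a line. ABCC2, ABCG5 and ABCG8 stood higher in HepG2, ABCG1 stood higher in Huh-7D12, and ABCB9 stood higher in SK-Hep-1. ABCB1, ABCB4 and ABCC6 stood lower in SK-Hep-1. None stood apart in Hep3B. Of all genes that entered, 1.46% stood higher in HepG2, 1.52% in Huh-7D12, 5.37% in SK-Hep-1 and 0.808% in Hep3B, while 3.31% stood lower in SK-Hep-1, 1.15% in HepG2, 0.536% in Huh-7D12 and 0.448% in Hep3B. The shares of the 37 genes were 8.11% higher in HepG2 and 8.11% lower in SK-Hep-1, which are 3 genes each, and 2.70%, or 1 gene, higher in each of SK-Hep-1 and Huh-7D12. Just inside the threshold lay ABCB9 (2.02), ABCG1 (2.03) and ABCC2 (2.04), and among those just outside it were ABCD3 in SK-Hep-1 (-1.69) and ABCD2 in Huh-7D12 (1.68). With a pseudocount of 4 in place of 1, ABCB1 was the only one of the 8 to keep its call. Calls also fell over all genes, with 1.61% then lower in SK-Hep-1 in place of 3.31%.

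**Figure D1:**
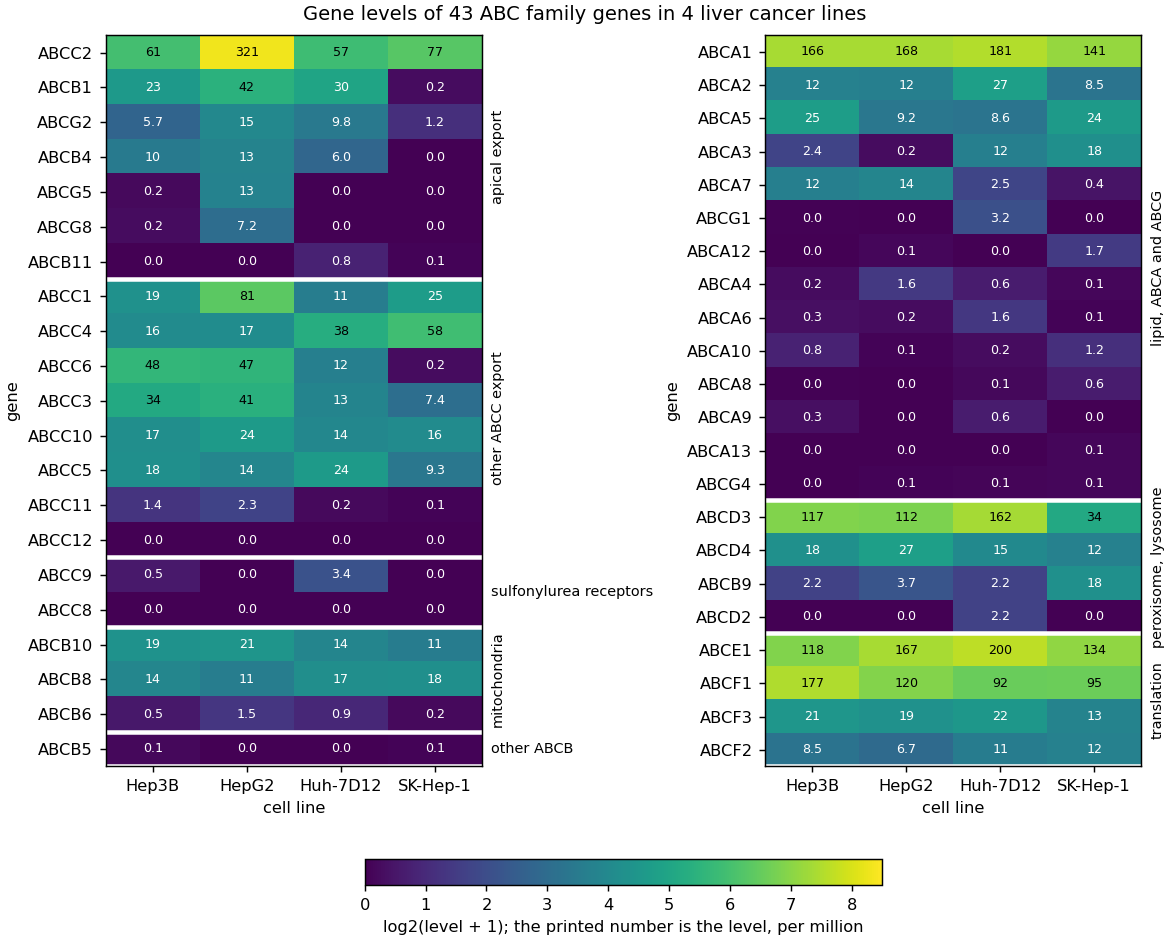
Gene levels of 43 of the 45 ABC genes (rows, grouped by role) in the 4 lines (columns). Colour gives log2(level + 1) and the printed number the level itself; ABCC2 in HepG2 is the brightest cell at 321, and the row of ABCA1 is even at 141 to 181.

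The exporters of the canalicular membrane were the group with most of these genes. Of 7 listed genes 6 entered; 3 of them stood higher in HepG2 and 2 lower in SK-Hep-1. Each line was also set against the average log2(level + 1) of the other 3, and the median of that difference was 2.23 in HepG2, -0.31 in Huh-7D12, -0.42 in Hep3B and -1.79 in SK-Hep-1. Over all genes that entered the medians lay between -0.08 and -0.03. The median of the 6 exporters does not show that each was raised in HepG2. ABCG5 and ABCG8 entered through HepG2 alone, and ABCB11, with 0 reads there, was left out. In HepG2 ABCB1, ABCB4 and ABCG2 exceeded the next line only 1.41-fold, 1.27-fold and 1.52-fold. The average of the other 3 lines includes the low values of these genes in SK-Hep-1.

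ABCC2, also called MRP2, exports bilirubin glucuronides and glutathione conjugates into bile. Its level was 321 in HepG2 (5873 reads), against 77.3 in SK-Hep-1, 60.8 in Hep3B and 56.5 in Huh-7D12. HepG2 alone was high, 4.15-fold (3.92 to 4.40) above SK-Hep-1, the nearest line, and the other 3 lines lay close together. In SK-Hep-1 ABCC2 had 1466 reads, while the other 6 exporters of the group had 23 reads or fewer each. Scaled to exon length it led the whole family in HepG2, at 41.0 per kilobase. With median-of-ratios scaling the distance was 1.997 and the call ended.

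ABCG5 (chromosome 2, 43812472 to 43838865) and ABCG8 (chromosome 2, 43831942 to 43882987) overlap on opposite strands, by 137 exon bases. ABCG5 had 231 reads in HepG2, against 5 in Hep3B and 0 in Huh-7D12 and SK-Hep-1. ABCG8 had 132 reads in HepG2, against 6 in Hep3B and 0 in the other two. Both sterol pump genes were thus read in HepG2 and nearly without reads elsewhere. HepG2 stood 72.4-fold (30.6 to 225) above Hep3B for ABCG5 and 34.5-fold (15.4 to 95.6) for ABCG8. Whether reads were counted by strand is not given in the sources used here.

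ABCB1 and ABCB4 are neighbours on chromosome 7, with 23197 bases and no annotated gene between them. ABCB1 encodes P-glycoprotein, the drug efflux pump that confers multidrug resistance, and ABCB4 the flippase that supplies phosphatidylcholine to bile. ABCB1 had 4 reads in SK-Hep-1, a level of 0.211, against levels of 42.4 in HepG2, 30.1 in Huh-7D12 and 23.4 in Hep3B. Between SK-Hep-1 and Hep3B, the nearest line, this was a 111-fold (43.1 to 408) difference. ABCB4 had 0 reads in SK-Hep-1, against 142 in Huh-7D12, 235 in HepG2 and 290 in Hep3B, which makes it at least 38.1-fold lower than in Huh-7D12. The order of the other 3 lines differed between the pair on the level scale only in the place of Hep3B and Huh-7D12, since ABCB4 had levels of 12.8 in HepG2, 10.1 in Hep3B and 6.03 in Huh-7D12.

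ABCG2, an exporter of urate and of many drugs, did not pass the threshold. Its level was 1.21 in SK-Hep-1 (23 reads), against 5.69 in Hep3B, 9.76 in Huh-7D12 and 14.8 in HepG2, and the distance below Hep3B was 1.60 on the log2 scale, or 4.69-fold (3.02 to 7.60) on the reads. ABCB11, the bile salt export pump, did not enter. It had 18 reads in Huh-7D12, 1 in SK-Hep-1 and 0 in Hep3B and HepG2. It was thus at or below the floor of 3 reads in 3 lines, HepG2 included, where each of the other canalicular exporters had 132 reads or more.

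**Figure D2:**
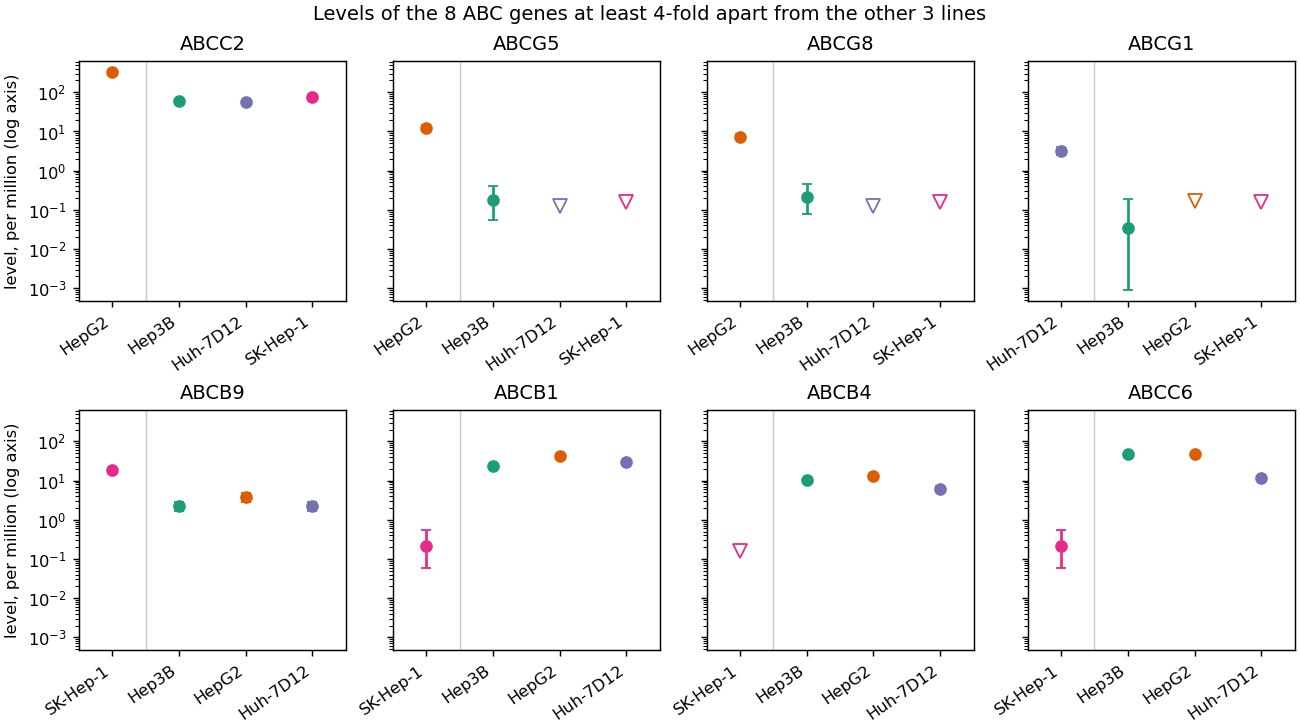
Levels (log axis) of the 8 genes that stood apart, with the line that stood apart left of the grey rule in each panel. Points carry 95% Poisson intervals and open triangles mark the floor of 3 reads for libraries with 0 reads; ABCB1 in SK-Hep-1 lies at 0.211 and the other 3 lines at 23.4 to 42.4.

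Of the remaining 8 ABCC exporters 7 entered, and 1, ABCC6, stood lower in SK-Hep-1. The medians were 1.19 in HepG2, 0.26 in Hep3B, -0.88 in SK-Hep-1 and -0.37 in Huh-7D12. ABCC6 is a liver transporter whose loss causes pseudoxanthoma elasticum. It had 4 reads in SK-Hep-1, against levels of 11.8 in Huh-7D12, 46.6 in HepG2 and 48.4 in Hep3B, and was 56.1-fold (21.7 to 207) lower than in Huh-7D12. The values of ABCC6 are uncertain, because its pseudogenes ABCC6P1 and ABCC6P2 are near-identical copies of part of the gene and reads could have been split between them. ABCC6P1 had 3 reads in SK-Hep-1, against 221 in Huh-7D12, 603 in HepG2 and 1317 in Hep3B. ABCC6P2 had 0 reads in SK-Hep-1, against 38, 163 and 216 in the same order. All 3 rows thus ranked SK-Hep-1 last.

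ABCC1, or MRP1, which exports glutathione conjugates and leukotriene C4, was highest in HepG2. Its level was 80.6 in HepG2, against 24.8 in SK-Hep-1, 18.7 in Hep3B and 11.3 in Huh-7D12, which is 3.25-fold (2.93 to 3.61) above the nearest line and short of the threshold. Without SK-Hep-1, the nearest line, ABCC1 passed it. ABCC3, a basolateral exporter of glucuronides, had levels of 41.1 in HepG2, 34.5 in Hep3B, 7.39 in SK-Hep-1 and 13.2 in Huh-7D12. ABCC4, which carries cyclic nucleotides and prostanoids, was highest in SK-Hep-1, with 58.4 in SK-Hep-1, 38.3 in Huh-7D12, 16.7 in HepG2 and 16.1 in Hep3B. The levels of ABCC4 in HepG2 and Hep3B do not differ beyond their counting intervals, 14.8 to 18.7 and 14.6 to 17.6. ABCC5 lay between 9.34 and 23.7 and ABCC10 between 14.4 and 24.1. ABCC11, whose variants set the type of earwax, reached 2.30 in HepG2 and 1.43 in Hep3B, with 1 read in SK-Hep-1 and 4 in Huh-7D12. It shares 293 exon bases with LONP2 on the opposite strand, a gene with 1186 to 1776 reads per library. ABCC12 had 0 reads in every line.

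The sulfonylurea receptors ABCC8 and ABCC9 are regulatory subunits of ATP-sensitive potassium channels and transport nothing themselves. ABCC8 had 0 reads in all 4 lines. ABCC9 had 81 reads in Huh-7D12, against 14 in Hep3B and 0 in HepG2 and SK-Hep-1. KCNJ8, the pore subunit that pairs with ABCC9, had 506 reads in Huh-7D12, against 162 in Hep3B and 0 in the other two, which is the same order of lines. Neither gene passed the threshold, with distances of 1.58 for ABCC9 and 1.76 for KCNJ8. The other pore gene, KCNJ11, had 22 reads at most and did not enter.

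Among 14 ABCA and ABCG genes of lipid transport 10 entered, and 1, ABCG1, stood higher in Huh-7D12. The medians were 0.11 in Huh-7D12, -0.19 in Hep3B, -0.32 in HepG2 and -0.44 in SK-Hep-1. ABCA1, which loads cholesterol and phospholipid onto apolipoprotein A-I, was among the most abundant and even members. Its level was 181 in Huh-7D12, 168 in HepG2, 166 in Hep3B and 141 in SK-Hep-1, a range of 0.36 on the log2 scale. ABCG1, which passes cholesterol to mature HDL, had 76 reads in Huh-7D12, against 1 in Hep3B and 0 in HepG2 and SK-Hep-1. Its level in Huh-7D12 was 3.23, and the ratio to the 1 read of Hep3B was 92.5 (16.1 to 3699).

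ABCA3, known for loading surfactant lipids in the lung, spread widely without passing the threshold in a single line. It had 4 reads in HepG2, a level of 0.219, against 2.37 in Hep3B, 17.7 in SK-Hep-1 and 11.8 in Huh-7D12. ABCA7, a lipid transporter linked to Alzheimer risk, had a level of 0.369 (7 reads) in SK-Hep-1, against 2.46 in Huh-7D12, 11.8 in Hep3B and 13.7 in HepG2. These 2 genes lay in opposite order in HepG2 and SK-Hep-1. ABCA2 was at 26.9 in Huh-7D12 and at 8.55 to 12.4 elsewhere. ABCA12, the lipid transporter of the skin barrier, had 33 reads in SK-Hep-1, 2 in HepG2 and 0 in the other two.

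ABCA5, ABCA6, ABCA8, ABCA9 and ABCA10 lie together on chromosome 17, and ABCA5 was the only one with more than 37 reads in any line. Its levels were 25.4 in Hep3B, 24.1 in SK-Hep-1, 9.24 in HepG2 and 8.58 in Huh-7D12. ABCA10, which shares 318 exon bases with ABCA5 on the same strand, had 22, 23, 1 and 5 reads in the same order of lines, so that both were higher in Hep3B and SK-Hep-1. ABCA6 had 37 reads in Huh-7D12 and at most 8 elsewhere. ABCA8 had at most 11 reads and ABCA9 at most 13, and neither entered. ABCA4, the retinal flippase, had 30 reads in HepG2 and at most 13 elsewhere, while ABCA13 and ABCG4 had at most 2 reads in any line. ABCB5 had at most 4 and did not enter.

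Of the 5 genes of peroxisomes and lysosomes, all of which entered, 1 stood higher in SK-Hep-1. ABCB9, which moves peptides into lysosomes, had a level of 18.1 in SK-Hep-1 (344 reads), against 3.72 in HepG2, 2.23 in Hep3B and 2.21 in Huh-7D12. It was 4.88-fold (3.75 to 6.43) higher than in HepG2. Exons of OGFOD2 and ARL6IP4 cover 1656 and 1590 of its exon bases on the opposite strand; those genes had 15 and 1 reads in SK-Hep-1. With scaling to the reads outside mitochondrial genes its distance was 1.90 and the call ended.

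ABCD3 imports branched-chain fatty acids and bile acid intermediates into peroxisomes. It had a level of 33.8 in SK-Hep-1, against 112 in HepG2, 117 in Hep3B and 162 in Huh-7D12. SK-Hep-1 lay below all of the other 3, at 3.30-fold (3.02 to 3.61) between SK-Hep-1 and HepG2. ABCD2, which imports very long-chain fatty acids, had 52 reads in Huh-7D12 and 0 in the other 3 lines, and was at least 21.1-fold higher there on the reads, although its level of 2.21 kept it below the threshold. ABCD4, of lysosomal cobalamin export, lay between 12.3 and 27.0.

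The 4 mitochondrial transporters all entered and none stood apart. ABCB10, of heme synthesis, lay between 10.8 and 20.6 and ABCB8 between 11.0 and 17.8. ABCB6 was low, with 3 reads in SK-Hep-1 and 13 to 28 elsewhere.

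ABCE1 splits ribosomes after termination and ABCF1 acts in translation initiation, and per exon length 1 or the other came first in 3 of the 4 lines. ABCF1 reached 39.0 per kilobase in Hep3B, and ABCE1 21.5 in SK-Hep-1 and 32.0 in Huh-7D12. In Huh-7D12 ABCD3, at 21.4, lay ahead of ABCF1, at 20.4. Only in HepG2 did another gene, ABCC2, come first, with ABCE1 at 26.7 and ABCF1 at 26.4. The levels of ABCE1 were 200.5 in Huh-7D12, 167 in HepG2, 134 in SK-Hep-1 and 118 in Hep3B, and those of ABCF1 177 in Hep3B, 120 in HepG2, 95.2 in SK-Hep-1 and 92.1 in Huh-7D12. ABCF2 lay between 6.72 and 12.3 and ABCF3 between 13.0 and 21.6. None of the 4 genes of translation stood apart.

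Across the 4 lines, 9 of the 37 genes (24.3%) varied by less than 2-fold, and 28.3% of all genes did so. Among them were ABCA1, ABCB8, ABCB10, ABCC10 and the 4 genes of translation. A range of 4-fold or more was seen in 16 of the 37 genes (43.2%), with 31.4% for all genes. That group held all 6 canalicular exporters that entered, and ABCA3, ABCA7, ABCB9, ABCC1, ABCC3, ABCC6, ABCC9, ABCD3 and ABCG1 were also in it.

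Lines were also set against each other in pairs, which share libraries and so are not independent. HepG2 and SK-Hep-1 differed most, with 11 of 37 genes 4-fold apart, and Hep3B and Huh-7D12 least, with 1. Higher in HepG2 than in SK-Hep-1 were 9 genes, 24.3% against 7.92% of all genes, and lower were 2, 5.41% against 9.67%. Huh-7D12 had 7 genes higher than SK-Hep-1 (8.71% of all genes) and 1 lower (9.07%), and Hep3B had 5 higher than SK-Hep-1 (8.47%) and 2 lower (9.86%). HepG2 had 5 higher than Huh-7D12 (4.57%) and 3 lower (6.01%). Hep3B had 0 higher than HepG2 (4.79%) and 5 lower (3.92%), among them ABCC1, ABCC2, ABCG5 and ABCG8. Hep3B had 0 higher than Huh-7D12 (3.19%) and 1 lower (3.95%), which was ABCG1. The median log2 difference over the 37 genes was 0.22 in HepG2, 0.03 in Huh-7D12, -0.14 in Hep3B and -0.62 in SK-Hep-1. Without SK-Hep-1 it was 0.46 in HepG2, -0.20 in Huh-7D12 and -0.23 in Hep3B, so that the sign in Huh-7D12 changed. That sign also changed with all lines kept, at a pseudocount of 4 and at an entry level of 5.

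**Figure D3:**
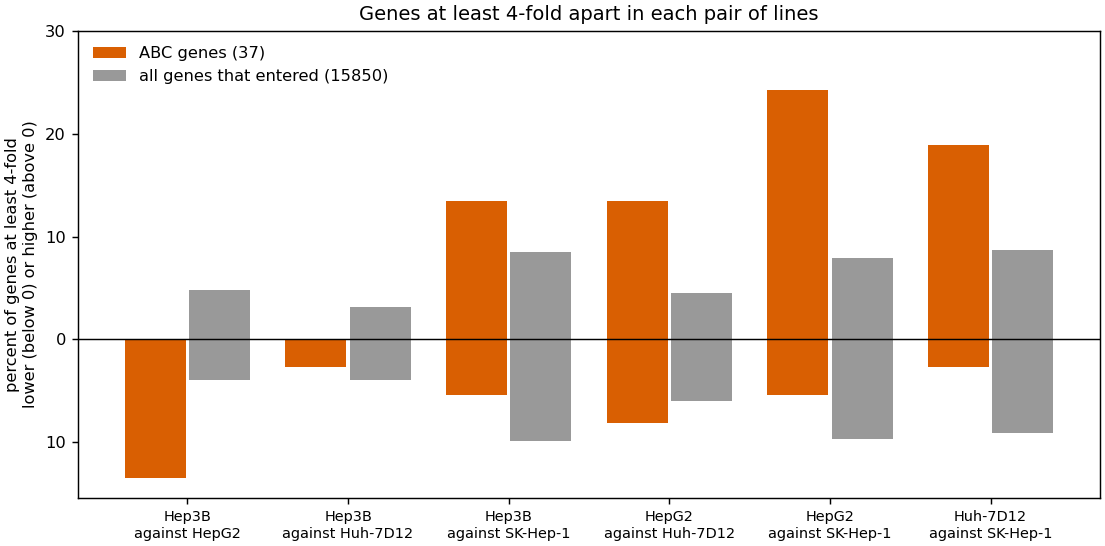
Percent of genes at least 4-fold higher (above 0) or lower (below 0) in the first than in the second line of each pair, for the 37 ABC genes that entered (orange) and all 15850 genes that entered (grey). The tallest bar is that of ABC genes higher in HepG2 than in SK-Hep-1, at 24.3%.

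Genes known to work with the family were taken from lists by role. TAP1, TAP2 and CFTR are ABC proteins under other symbols. TAP2, which with TAP1 feeds peptides to MHC class I, stood higher in SK-Hep-1, at 43.8 against 8.75 in HepG2, 5.06 in Hep3B and 3.23 in Huh-7D12. TAP1 was at 42.0 in SK-Hep-1, 15.0 in HepG2, 2.25 in Huh-7D12 and 0.907 in Hep3B, with a distance of 1.42. CFTR had 26 reads in Huh-7D12 and at most 8 elsewhere.

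Among 9 other carriers of bile constituents 6 entered; 2 stood lower and 1 higher in SK-Hep-1. The uptake carrier SLCO2B1 had 2 reads in SK-Hep-1, against 147 to 292 in the other 3 lines, and the exporter SLC47A1 had a level of 2.43, against 15.7 to 50.1. ATP8B1, a lipid flippase of the canaliculus, was the one that stood higher, at 95.3 in SK-Hep-1 against 22.3 in Hep3B, 11.8 in Huh-7D12 and 9.46 in HepG2. SLC51B, of basolateral bile salt export, had 0 reads in SK-Hep-1, against 53 to 97 in the other 3 lines, and did not pass the threshold.

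Of 14 regulators of these genes 13 entered, 1 stood higher in HepG2 and 4 stood lower in SK-Hep-1. NR1H4, the bile acid receptor that drives ABCB11 and ABCB4, and HNF4A, which maintains the hepatocyte programme, had 0 reads in SK-Hep-1. In the other 3 lines NR1H4 had levels of 48.7 to 62.3. NR1I2, the xenobiotic receptor PXR, had 268 reads in HepG2 and 0 in the other 3 lines.

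Of 8 genes of lipoproteins and sterol handling, 1 stood higher in HepG2 and 2 stood lower in SK-Hep-1. APOA1, the acceptor for ABCA1, had 0 reads in SK-Hep-1, and APOE had a level of 17.9 there, against 428 to 891. LCAT, which esterifies cholesterol on HDL, was at 26.1 in HepG2 and at 2.84 to 4.48 in the other 3 lines. None of 7 peroxisomal and none of 6 ribosomal partner genes stood apart. Of 6 mitochondrial ones SLC25A37, the iron importer that pairs with ABCB10, stood higher in SK-Hep-1, at 287 against 9.49 to 22.5.

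Turning to circular RNA, 35 of the 45 genes had no listed circRNA. The share of all genes without one was not computed. Of the 39 listed, 21 had a back-splice read in at least 1 line, and these came from 4 genes: 8 of 8 in ABCD3, 6 of 12 in ABCC1, 6 of 10 in ABCC4 and 1 of 2 in ABCA1. Among all 12473 listed circRNAs 8000 had a read. The circRNAs of ABCB6 and ABCD4, each listed with another overlapping gene, and those of ABCA12, ABCA13, ABCC2 and ABCC3 had no read. In all 177 back-splice reads were counted, 151 of them in ABCD3. Per line the family had 96 of 13515 in Huh-7D12, or 0.710% (0.582 to 0.867, Wilson), 46 of 6235 in HepG2, or 0.738% (0.554 to 0.983), 29 of 12916 in Hep3B, or 0.225% (0.156 to 0.322), and 6 of 7740 in SK-Hep-1, or 0.0775% (0.0355 to 0.169).

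The share was similar in Huh-7D12 and HepG2, whose intervals overlap, and lower in Hep3B and SK-Hep-1. The abundant members ABCE1 and ABCF1, with 1804 to 5060 gene reads per library, had no listed circRNA. ABCA1 had 1 back-splice read in all, in HepG2, from 2674 to 4770 gene reads per library. ABCC2, with 5873 gene reads in HepG2, had 0 there, for which the floor of 3 reads gives 0.0511 back-splice reads per 100 gene reads and the exact interval reaches 0.0628. Of 2356 circRNA host genes with at least 500 gene reads in HepG2, only 1043 (44.3%) had a back-splice read.

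The ABCD3 circRNA that joins exon 10 to exon 2 was the most abundant of the family. It would hold 787 bases if all exons between were kept. It had 0 reads in SK-Hep-1, against 49 in Huh-7D12, 36 in HepG2 and 20 in Hep3B, and by the 4-fold rule for circRNAs it stood lower in SK-Hep-1, as did 3.6% of 777 circRNAs that entered. The circRNA of exons 2 to 9 had 11 reads in Huh-7D12, 1 in HepG2 and 0 in Hep3B and SK-Hep-1 and stood higher in Huh-7D12, as did 6.44% of those 777. With a pseudocount 4 times larger that call ended. The circRNA of exons 2 to 16, the third that entered, had 9 reads in Huh-7D12, 3 in HepG2, 2 in Hep3B and 0 in SK-Hep-1. No ABC circRNA stood apart in another way, where 7.98% of the 777 stood higher in SK-Hep-1, 1.8% in HepG2 and 1.67% in Hep3B, and 1.03% stood lower in HepG2, 0.386% in Huh-7D12 and 0.386% in Hep3B.

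Of the 8 ABCD3 circRNAs, 6 open with exon 2 and held 143 of the 151 reads (94.7%). The 4 junctions printed above share their lower-case letters for that reason. Apart from the 3 that entered, the remaining 5 had 2 to 7 reads each over the 4 libraries and none in SK-Hep-1. All 8 were found in Huh-7D12, 4 in HepG2 and 4 in Hep3B.

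ABCD3 back-splice reads were set against ABCD3 gene reads. There were 84 per 3827 gene reads in Huh-7D12, or 2.19 per 100 (1.75 to 2.71, Clopper-Pearson), 42 per 2041 in HepG2, or 2.06 (1.49 to 2.77), 25 per 3355 in Hep3B, or 0.745 (0.483 to 1.10), and 0 per 641 in SK-Hep-1. Huh-7D12 exceeded Hep3B 2.95-fold (1.87 to 4.81) and HepG2 exceeded Hep3B 2.76-fold (1.64 to 4.73), while Huh-7D12 and HepG2 did not differ beyond counting error, with a ratio of 1.07 (0.728 to 1.58). The gene reads of Hep3B and HepG2 gave nearly the same level, 117 and 112, so the lines differed in back-splice reads and by little in gene level. For the 0 of SK-Hep-1 the floor of 3 reads gives 0.468 per 100. That value lies below the intervals of Huh-7D12 and HepG2, whereas the exact interval of SK-Hep-1 reaches 0.574 and overlaps that of Hep3B.

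Among host genes with at least 500 gene reads in the line, few gave more back-splice reads per gene read than ABCD3. These were 46 of 2683 hosts (1.71%) in Huh-7D12, 17 of 2356 (0.722%) in HepG2 and 212 of 2887 (7.34%) in Hep3B. By back-splice reads alone ABCD3 ranked 8 in Huh-7D12, 11 in HepG2 and 72 in Hep3B. In SK-Hep-1 it was among the hosts without a read. Of 2384 hosts with at least 500 gene reads there, only 1100 (46.1%) had a back-splice read.

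**Figure D4:**
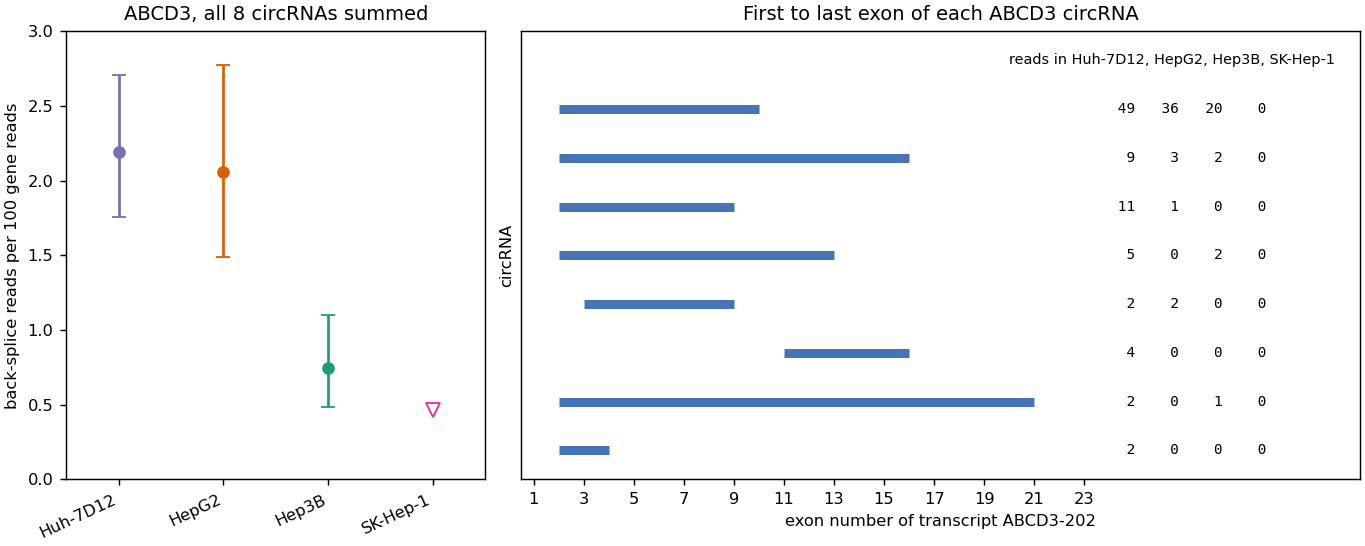
Left, ABCD3 back-splice reads per 100 gene reads in each line, with 95% Clopper-Pearson intervals; the open triangle is the floor of 3 reads for the 0 reads of SK-Hep-1. Right, first to last exon of the 8 ABCD3 circRNAs with their back-splice reads; 6 of the 8 begin at exon 2, and the top bar had 49, 36, 20 and 0 reads.

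ABCC4 and ABCC1 came next, at the edge of detection. ABCC4 had 14 back-splice reads, 10 of them in Huh-7D12, 2 in SK-Hep-1 and 1 each in HepG2 and Hep3B. Per 100 gene reads these were 1.11 (0.533 to 2.03) for Huh-7D12 and 0.181 (0.0219 to 0.651) for SK-Hep-1, although SK-Hep-1 had more ABCC4 gene reads, 1107 against 902. Those intervals overlap. The most frequent ABCC4 circRNAs were 4 with 3 reads each over all lines. ABCC1 had 11 reads, with 4 in SK-Hep-1, 3 in Hep3B and 2 each in HepG2 and Huh-7D12, and its most frequent circRNA, exons 2 to 4, had 4 reads. Of the 12 listed circRNAs of ABCC1, 6 open at the first base of exon 2.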

How the data were processed

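RNA of 4 lines was measured in 1 library each. Both deposited tables hold signal on a normalized scale, made by the authors from whole reads with 1 factor per library, as checked on the files (100% of values whole within a tolerance of 0.001, factors 0.890 to 1.39 and equal in both tables). Reads in the text are these whole numbers. STAR 2.6.1d and hg38 are listed, with no role, per the submitters' processing notes. Not given in the sources used here were the read counter, its use of strand, the circRNA caller, the annotation and the normalization method.

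Symbols, positions, exon lengths and junction sequences came from GENCODE 29 through Ensembl identifiers (29670 of 29670 matched), and the promoter from RefSeq (GRCh38.p14). Deposited circRNA positions are the flanking bases; those printed are the first and last base inside the loop, counted from 1. For circRNAs the pseudocount was 1.21 and the entry level 6.07, which is 5 times as much. Both are on the deposited scale, without the factor 0.0392 of the gene levels. Folds are to the nearest line, with exact binomial (Clopper-Pearson) intervals; levels have exact Poisson intervals; a library at 0 was set to a floor of 3 reads, and the fold is then written "at least". Intervals and floors cover counting error only, since PCR copies are not independent molecules. With 1 library per line no residual degrees of freedom remained, so lines were compared by size only. The size rule was tried on simulated reads with counting error only. There genes with a mean level above 5 were changed 8-fold in SK-Hep-1. Changes near 4-fold and genes at lower levels were thus not covered. Library scaling by TMM and by median-of-ratios factors (edgeR 4.0.16 in R 4.3.3 for TMM), other pseudocounts, entry levels and thresholds, and leaving out SK-Hep-1 were the alternatives.

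The members, the role and partner lists and the rules were chosen with earlier results of these data known. Values of a few genes are not reported here, although they count in the totals. The other members that entered are all named, with values for those that stood apart, the canalicular exporters and the most abundant per exon length of each role in every line, and of each partner list at most 4 genes with the largest distance. The hepatocyte markers share APOA1 and HNF4A with the partner lists.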

Additional observations from a re-analysis of the deposited data

How the results depend on the processing

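Counts of ABC genes that stood apart moved with the pseudocount, the threshold, the entry level and the scaling. At a pseudocount of 0.25 they were 1 lower in HepG2 (ABCA3), 3 higher in Huh-7D12, 2 higher and 5 lower in SK-Hep-1, with 17 genes 4-fold apart for HepG2 and SK-Hep-1 and 7 for Hep3B and Huh-7D12. Over all genes that entered, 2.25% then stood lower in HepG2 and 2.77% higher in Huh-7D12. In SK-Hep-1 7.56% of all genes stood higher and 5.05% lower. For the pairs no such share was computed under the other settings. At 4 they were 0 higher in HepG2, Huh-7D12 and SK-Hep-1 and 1 lower in SK-Hep-1 (ABCB1), and the pairs gave 1 (Hep3B and HepG2), 0 (Hep3B and Huh-7D12), 2 (Hep3B and SK-Hep-1), 3 (HepG2 and Huh-7D12), 6 (HepG2 and SK-Hep-1) and 2 (Huh-7D12 and SK-Hep-1). The distances at 4 were 1.998 for ABCC2, 1.99 for ABCG5, -1.91 for ABCC6, 1.52 for ABCB9, 1.41 for ABCG8, -1.33 for ABCB4 and 0.84 for ABCG1. An entry level of 5 left 0 higher in Huh-7D12 and 0 between Hep3B and Huh-7D12, since ABCG1 no longer entered. Higher in Huh-7D12 at that entry level were 1.62% of all genes. Scaling to reads outside mitochondrial genes gave 0 higher in SK-Hep-1 and 2 between Hep3B and Huh-7D12, and moved the median of all genes by 0.15 in Hep3B and -0.16 in SK-Hep-1. Higher in SK-Hep-1 with that scaling were 4.90% of all genes. A 2-fold threshold gave 5 higher and 1 lower in HepG2, 5 higher in Huh-7D12, and 2 higher and 6 lower in SK-Hep-1, and an 8-fold one 1 higher in HepG2 (ABCG5) and 0 higher in either SK-Hep-1 or Huh-7D12. Shares of all genes at 2-fold were 4.62% higher and 2.97% lower in HepG2 and 4.83% higher in Huh-7D12. In SK-Hep-1 they were 12.4% higher and 8.25% lower. At 8-fold 0.675% stood higher in HepG2, 2.86% in SK-Hep-1 and 0.650% in Huh-7D12. For circRNAs in Huh-7D12 the count was 0 with the larger pseudocount and 2 with the lower entry level. Of the comparisons by setting 30 moved; the other 141 stayed within 1.5 times for a count, within the counting interval for back-splice reads, or, for a median, within an interval over the ABC genes that is wide enough to hold a change of sign. Some of the 141 could not have moved, such as those that added the circRNAs listed with several hosts, which had no read. Also among the 141 is the fall from 3 to 2 genes higher in HepG2 with median-of-ratios scaling, where ABCC2 lost its call. The median log2 difference ranged from 0.05 to 0.46 in HepG2, -0.20 to 0.25 in Huh-7D12, -0.23 to -0.01 in Hep3B and -0.72 to -0.35 in SK-Hep-1. In Huh-7D12 it was below 0 under 3 settings, at -0.02 with a pseudocount of 4, -0.19 with an entry level of 5 and -0.20 without SK-Hep-1. Without SK-Hep-1 it was 0.46 in HepG2 and -0.23 in Hep3B, and 4 genes stood higher in HepG2, with ABCC1 as the added one. Among all genes 2.35% then stood higher in HepG2. None of the 8 genes that stood apart changed direction under a setting that was run for it. Only the scaling settings could have changed it, since the others keep the order of the lines. No paired analysis was possible because each line has 1 library. Depth limits the circRNAs of all genes but ABCD3, which had 14 back-splice reads or fewer.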
